A study of Mus musculus with 15 samples.

Results

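Protease inhibitors that stratified epithelia make or secrete were followed across epidermis and tongue of newborn mice. The set was 10 genes: Spink5, Spink12, Spink14, Slpi, Wfdc5, Wfdc12, Cst6, Serpinb5, Serpinb12 and Serpinb3a. They were taken by gene symbol from the deposited expression table. Of these 10 genes, 9 were found among the 23420 mouse genes of the tables, and Spink12 was not analysed here.

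Stratified epithelia shed their surface cells by cutting the junctions between them, and the proteases that do so are held in check by inhibitors. Inhibitors with Kazal, whey acidic protein (WAP) or cystatin domains block a protease by occupying its active site. Serpins act as bait: the protease cuts the serpin and is usually trapped by it for good. Loss of SPINK5, which restrains kallikreins, causes Netherton syndrome in humans, a disease of a leaky and overly shedding skin.

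The libraries were RNA-seq of epidermis from Tmprss11a,b,c,d,e,f,g-/- mice (epidermis KO, n = 4), epidermis from wildtype mice (epidermis WT, n = 3), whole tongue from the same kind of knockout (tongue KO, n = 4) and whole tongue from wildtype mice (tongue WT, n = 4). All were taken at postnatal day 1, and in the knockouts all 7 HAT/DESC membrane serine protease genes had been targeted by gene editing. Epidermis was lifted off the dermis after warming in EDTA, whereas the tongue was not divided into its layers. By their A-numbers in the labels the libraries came from 9 animals. All 4 knockout animals and 2 wildtype animals gave both tissues.

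The library totals ran from 10117819 to 17819195 counted reads. Mitochondrial ribosomal RNA took 44.6% of the reads in epidermis WT 1, 20.1% to 23.8% in the other epidermis libraries and 35.5% to 40.8% in the tongue libraries. Of the targeted genes 6 were in the tables, and reads remained over all of them in the knockouts. The knockout mean was below the wildtype mean for 5 of the 6 in epidermis and for all 6 in tongue. Tmprss11b averaged 0.852 CPM in epidermis KO and 3.60 CPM in epidermis WT, and 13.8 CPM in tongue KO and 56.7 CPM in tongue WT, where CPM is counts per 1e6 reads after scaling for library composition. In epidermis Tmprss11g went the other way, at 11.0 CPM in KO and 8.25 CPM in WT. Tmprss11a was at 1.91 CPM in epidermis KO and 2.18 CPM in epidermis WT, and the ranges overlapped for both genes. Ranges also overlapped for Tmprss11f in epidermis (97.7 to 225 CPM in KO, 219 to 290 in WT). In tongue they overlapped for Tmprss11g (2.00 to 3.75 CPM in KO, 2.20 to 4.44 in WT). The 9 summed markers of suprabasal and cornified epidermis stood at 36786 to 61244 CPM in epidermis KO, 35080 to 49638 in epidermis WT, 151 to 219 in tongue KO and 103 to 224 in tongue WT. The 7 summed skeletal muscle markers stood at 87.5 to 697 CPM in epidermis KO and 95.6 to 252 in epidermis WT, against 30997 to 50410 in tongue KO and 28207 to 50142 in tongue WT. Whole tongue thus held much RNA of other tissue than epithelium, and in bulk samples such as these fewer cells of a type and less RNA per cell cannot be told apart.

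The animals' numbers fell into ranges, written A32x, A34x and A38x here, whose meaning the labels do not give. The A38x animals were A383 and A384 in wildtype and A386 and A387 in knockouts, and all gave both tissues. Fits of the A38x animals alone thus hold 2 libraries in each group. The A32x epidermis libraries, KO 1 and WT 1, stood below the rest of their groups for most of the inhibitor genes. Spink5 in KO 1 was at 53.2% of the mean of the other 3 knockout libraries, and in WT 1 at 46.0% of the mean of the other 2 wildtype libraries. The same percentages were 38.3% and 34.5% for Serpinb3a, and 85.1% and 41.0% for Slpi. Spink14 was at 59.3% in KO 1 and at 120% in WT 1, the 1 value above such a mean.

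The genes lie in 4 places of the genome (GRCm38). Spink5 (chr18:43963235-44022501) and Spink14 (chr18:44027869-44032417) are neighbours on the plus strand.

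Slpi (chr2:164354070-164389095), Wfdc12 (chr2:164189231-164190608) and Wfdc5 (chr2:164176327-164182742) share a WAP locus and lie on the minus strand. Cst6 (chr19:5344705-5349574) is on the minus strand. Serpinb5 (chr1:106861173-106883348) and Serpinb12 (chr1:106934449-106957080) are on the plus strand of the clade B serpin locus, and Serpinb3a (chr1:107045587-107052303) is on its minus strand.

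Promoter sequences are shown for the serpins in a pair of sets, because neighbouring genes of this locus differed in their tissue pattern in the data below. The sequences are from RefSeq on GRCm38.p6. In the first set the promoters of Serpinb3a and of its near copies Serpinb3b and Serpinb3c are lined up on their TATAAA without gaps, with 80 bases before it and 10 after, read on the minus strand from chr1:107052353-107052448, chr1:107161140-107161235 and chr1:107278387-107278482. Capitals mark bases that differ from Serpinb3a.
Serpinb3a: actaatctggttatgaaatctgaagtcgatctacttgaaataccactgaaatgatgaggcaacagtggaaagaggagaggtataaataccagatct
Serpinb3b: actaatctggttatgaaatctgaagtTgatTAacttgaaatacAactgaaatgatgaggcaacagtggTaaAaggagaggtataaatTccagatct
Serpinb3c: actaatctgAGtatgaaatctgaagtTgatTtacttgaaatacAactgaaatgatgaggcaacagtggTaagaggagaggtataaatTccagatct

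Serpinb3b and Serpinb3c each differed from Serpinb3a at 7 of these 96 bases, an identity of 92.7%. The TATAAA began 65 bases before the RefSeq start of Serpinb3a, 41 before that of Serpinb3b and 31 before that of Serpinb3c. The letters TATAAA, on either strand, were found in 7.57% of 32851 mouse promoters over the 150 bases before the start.

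The second set gives the 150 bases before the start of Serpinb5 (chr1:106861025-106861174, plus strand) and before the upstream start of Serpinb12 (chr1:106934299-106934448, plus strand), which stand next to each other. In the data below Serpinb5 was called higher in epidermis and Serpinb12 was not called. Capitals mark CCAAT and TGANTCA, a looser pattern than the letters that AP-1 factors bind best. The match TGAATCA in Serpinb5 and the match TGATTCA in Serpinb12 are reverse complements, the same letters read from opposite strands. Binding was not tested.
Serpinb5: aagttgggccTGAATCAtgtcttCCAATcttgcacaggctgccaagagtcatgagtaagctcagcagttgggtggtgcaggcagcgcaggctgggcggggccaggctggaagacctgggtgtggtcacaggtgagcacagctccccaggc
Serpinb12: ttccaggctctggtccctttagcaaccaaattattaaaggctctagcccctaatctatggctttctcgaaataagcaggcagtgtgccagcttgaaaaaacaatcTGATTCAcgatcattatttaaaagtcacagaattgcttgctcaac

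TGANTCA was found in 4.24% and CCAAT in 24.5% of the 32851 promoters over the same length, on either strand. Also searched were AACNNGTT, in 1.98% of promoters, and GCCNNNGGC, in 9.61%, which these windows do not hold. No matches overlapped each other, and they are matches of letters only.

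The make-up of the inhibitor RNA differed between the tissues. Each gene was divided by the length of a single annotated transcript, the longest principal one where any is marked (3951 bases for Cst6). The order and the shares within a tissue depend on that choice. Per kilobase of transcript, Spink5 led in epidermis at 359.5 CPM per kb in KO and 312 in WT, and was followed by Serpinb12 at 303 and 243, Serpinb5 at 250 and 214, and Serpinb3a at 114 and 118. Wfdc5 stood at 24.5 CPM per kb in epidermis KO and 19.3 in epidermis WT, and Cst6 at 25.9 and 17.4. Slpi, Spink14 and Wfdc12 came last, at 5.13, 1.96 and 0.900 in epidermis KO and 2.75, 1.40 and 0.714 in epidermis WT. The ranges of neighbours in this order overlapped among the first 4 genes, between Cst6 and Wfdc5, between Spink14 and Wfdc12 and, in wildtype, between Slpi and Spink14, but not between Serpinb3a and the gene below it.

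In tongue Serpinb3a led at 467 CPM per kb in KO and 513 in WT, and was followed by Slpi at 292 and 289, Serpinb12 at 193 and 202, Spink5 at 88.9 and 94.8, and Serpinb5 at 34.3 and 41.4. Below them were Wfdc5 at 12.2 and 9.98, Wfdc12 at 6.38 and 6.21, Cst6 at 1.64 and 1.60, and Spink14 at 0.0778 and 0.244. The order was the same in both genotypes, and only Slpi and Serpinb12 in tongue KO had ranges that overlapped. As a share of the summed CPM per kb of the 9 genes, Slpi made up 0.325% to 0.730% in the epidermis KO libraries and 0.281% to 0.303% in the epidermis WT libraries. In tongue it made up 24.6% to 28.9% in KO and 21.4% to 28.9% in WT. Spink5 made up 31.8% to 34.8% in epidermis KO and 31.98% to 34.99% in epidermis WT, the A32x libraries KO 1 and WT 1 included.

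**Figure D1:**
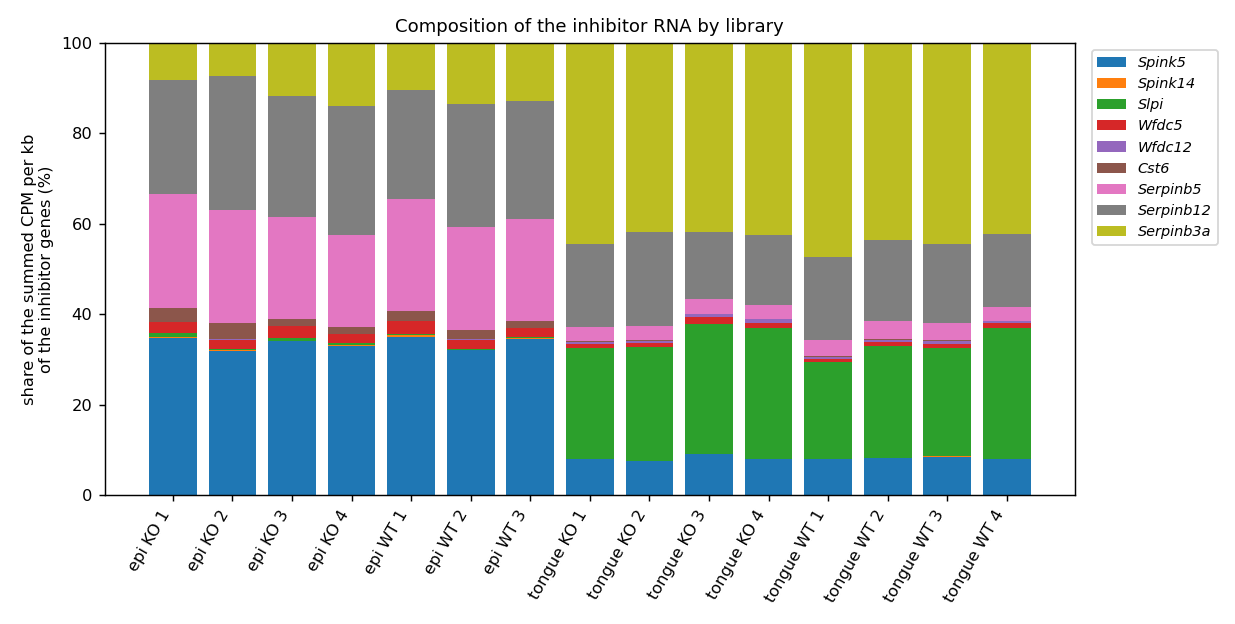
Share of each inhibitor gene in the summed CPM per kb of the 9 genes, in percent, with 1 stacked bar for each library of epidermis KO, epidermis WT, tongue KO and tongue WT. Spink5, Serpinb12 and Serpinb5 fill most of each epidermis bar, and Serpinb3a and Slpi fill most of each tongue bar.

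Epidermis was compared with tongue within each genotype. The log2 fold changes below are epidermis over tongue, with p-values from edgeR's quasi-likelihood test after Benjamini-Hochberg adjustment over all genes, and a gene was called at an adjusted p under 0.05. Of the 9 genes 8 passed the filter on low counts, all but Spink14. In knockouts 4 were higher and 3 lower in epidermis, where 32.7% of 16398 genes were called higher and 31.1% lower (63.8% in all). In wildtype the same 4 were higher and the same 3 lower, where 32% of 16577 genes were called higher and 31.6% lower (63.6% in all). The tissues did not overlap for 7 of the 8 tested genes in each genotype, as for 58.5% of all genes tested in knockouts and 65.7% in wildtype, nor for the untested Spink14. All 7 calls held in the A38x animals alone (A383 and A384 in wildtype, A386 and A387 in knockouts). The counts are near the background of these very different tissues, and the results lie in the size and direction of each gene.

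The 4 genes higher in epidermis were Cst6, Serpinb5, Spink5 and Wfdc5, and the 3 lower were Slpi, Wfdc12 and Serpinb3a. Of 7 basal keratinocyte markers, 7 were higher in epidermis in knockouts and 6 in wildtype. Their median log2 fold change was 2.06 in knockouts and 1.87 in wildtype. Set against that median, which was done after the values were seen, Spink5 came out near 0 (-0.023 in knockouts and -0.14 in wildtype) and Wfdc5 on the tongue side (-1.03 and -0.90). Cst6 (1.92 and 1.59) and Serpinb5 (0.82 and 0.51) stayed on the epidermis side, and Slpi, Wfdc12 and Serpinb3a lay further on the tongue side. The 7 markers themselves ran from 0.87 (Krt15) to 3.07 (Krt5) in knockouts and from 0.21 (Krt15) to 3.02 (Itgb4) in wildtype. The side of Spink5, Wfdc5, Serpinb5 and, in wildtype, Serpinb12 thus depends on the marker taken.

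**Figure D2:**
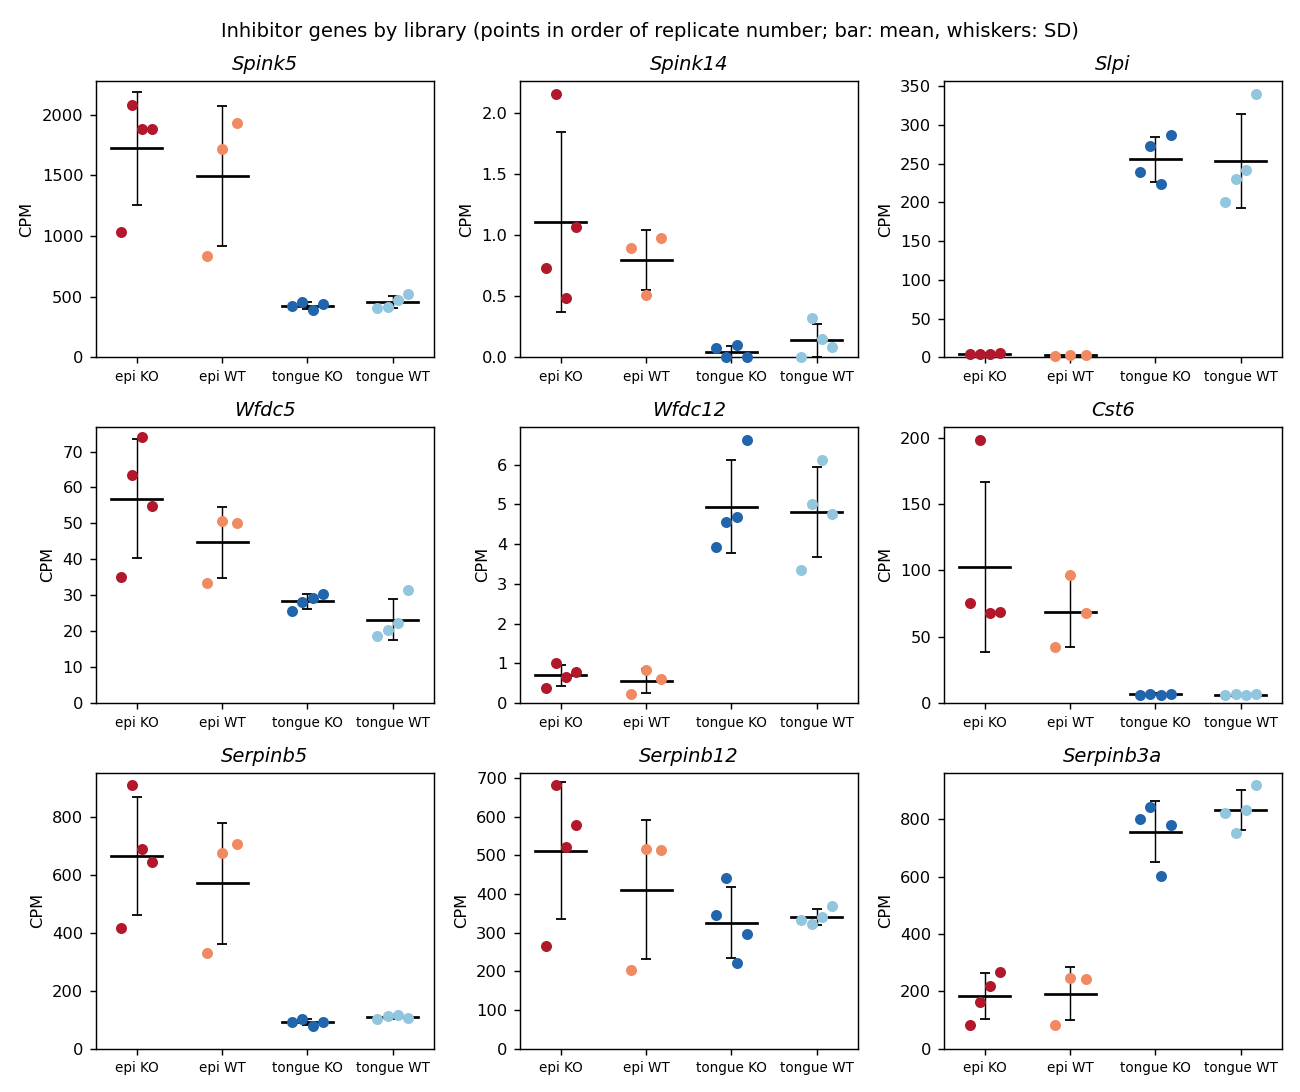
CPM of each inhibitor gene in each library, with 1 panel per gene and the groups epidermis KO, epidermis WT, tongue KO and tongue WT from left to right; horizontal bars are means and whiskers are SD. Slpi, Wfdc12 and Serpinb3a are higher in every tongue library than in any epidermis library, and Spink5, Cst6, Serpinb5 and Wfdc5 show the reverse.

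Spink5 encodes LEKTI, a chain of Kazal-type domains that inhibits kallikreins of the stratum corneum. It stood at 1036, 2083, 1879 and 1883 CPM in epidermis KO, against 420, 456, 386.97 and 438 CPM in tongue KO. It stood at 838, 1713 and 1930 CPM in epidermis WT, against 409, 416, 471 and 519 CPM in tongue WT. Every epidermis library lay above every tongue library, the low A32x libraries included. The log2 fold change was 2.04 (SE 0.24, adjusted p = 1.33e-05, edgeR) in knockouts and 1.74 (SE 0.28, adjusted p = 5.29e-04, edgeR) in wildtype. As given above, the difference is near 0 when set against the median of the basal keratinocyte markers.

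Spink14, a short Kazal-type gene next to Spink5, was near the floor of detection. It had 68 reads in the 4 epidermis KO libraries against 2 in the 4 tongue KO libraries, and 37 in the 3 epidermis WT libraries against 7 in the 4 tongue WT libraries. In CPM it ran from 0.484 to 2.16 in epidermis KO and from 0 to 0.0995 in tongue KO, and from 0.513 to 0.974 in epidermis WT and from 0 to 0.323 in tongue WT. The ratio of the read counts, scaled for library size, was 26.5 in knockouts (95% interval 7.07 to 224) and 5.36 in wildtype (2.36 to 14.2). These intervals cover counting error only. Without the filter on low counts the edgeR test gave Spink14 a log2 fold change of 4.56 (adjusted p = 6.41e-04) in knockouts and 2.36 (adjusted p = 0.0316) in wildtype, values that rest on the 2 and 7 tongue reads and are no bounds.

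Slpi encodes secretory leukocyte protease inhibitor, a WAP protein of mucosal secretions that inhibits neutrophil elastase and cathepsin G. It had the largest tissue difference of the tested inhibitor genes. It stood at 3.98, 3.90, 4.68 and 5.43 CPM in epidermis KO, against 240, 273, 224 and 287 CPM in tongue KO. It stood at 1.23, 2.97 and 3.02 CPM in epidermis WT, against 201, 231, 242 and 340 CPM in tongue WT. The fitted log2 fold change was -5.79 (SE 0.19, adjusted p = 4.41e-09, edgeR) in knockouts, 55.4-fold higher in tongue, and -6.63 (SE 0.35, adjusted p = 4.72e-07, edgeR) in wildtype, 98.8-fold higher in tongue.

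Markers of other cells that can make Slpi were as follows. The neutrophil markers, 6 of 8 listed being in the tables, summed to 0.249 to 1.05 CPM in epidermis KO, 0.359 to 0.564 in epidermis WT, 2.61 to 9.06 in tongue KO and 2.09 to 6.60 in tongue WT, with Mpo at 0 in the epidermis and Ly6g at 0 in the tongue. The seromucous gland markers, 5 of 7 being in the tables, summed to 1.61 to 3.19 CPM in epidermis KO and 1.38 to 3.47 in epidermis WT. In tongue they summed to 3.81 to 25.1 CPM in KO and 2.31 to 14.3 in WT. Bpifb1 was at 0 in the epidermis and Lpo at 0 in the tongue. Lpo averaged 1.68 CPM in epidermis KO and 1.79 in epidermis WT, most of the mean sums there (2.46 and 2.40 CPM). The 8 summed markers of tongue epithelium stood at 312 to 1278 CPM in epidermis KO and 614 to 1047 in epidermis WT, against 9655 to 12814 in tongue KO and 8590 to 13564 in tongue WT. The part of these cell types in the level of Slpi was not tested. Of the leukocyte proteases that Slpi inhibits, 1 of 3 was in the tables, Ctsg, whose highest group mean was 0.472 CPM.

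Wfdc12, also a small WAP gene, went with Slpi at a far lower level. It stood at 0.366, 0.995, 0.646 and 0.784 CPM in epidermis KO, against 3.91, 4.55, 4.68 and 6.63 CPM in tongue KO. It stood at 0.224, 0.820 and 0.615 CPM in epidermis WT, against 3.35, 5.01, 6.12 and 4.76 CPM in tongue WT. The tissues did not overlap, with log2 fold changes of -2.82 (SE 0.34, adjusted p = 1.68e-05, edgeR) in knockouts and -2.99 (SE 0.41, adjusted p = 1.70e-04, edgeR) in wildtype.

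Wfdc5, the WAP gene at the other end of the same 213 kb locus, had the opposite direction. It stood at 35.1, 63.5, 74.1 and 54.8 CPM in epidermis KO, against 25.5, 28.0, 29.2 and 30.5 CPM in tongue KO. It stood at 33.3, 50.7 and 50.2 CPM in epidermis WT, against 18.7, 20.3, 22.4 and 31.4 CPM in tongue WT. The difference was small but without overlap. The log2 fold change was 1.03 (SE 0.21, adjusted p = 9.79e-04, edgeR) in knockouts and 0.97 (SE 0.21, adjusted p = 0.00317, edgeR) in wildtype. The direction turns when set against the median of the basal keratinocyte markers. The antisense gene A730032A03Rik overlaps both Wfdc5 and Wfdc12, and without strand its reads cannot be told apart from theirs. It averaged 1.56 CPM in epidermis KO and 1.40 in epidermis WT, and 0.462 in tongue KO and 0.510 in tongue WT.

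Cst6 encodes cystatin E/M, an inhibitor of cathepsins and legumain whose loss disturbs cornification in mice. It stood at 75.1, 199, 67.9 and 68.3 CPM in epidermis KO, against 6.06, 7.16, 5.77 and 6.999 CPM in tongue KO. It stood at 42.3, 96.3 and 68.1 CPM in epidermis WT, against 5.74, 6.63, 6.12 and 6.86 CPM in tongue WT. The tongue libraries were nearly level, whereas epidermis KO 2 stood well above the rest. Cst6 had the largest difference toward epidermis of the tested inhibitor genes, at log2 fold changes of 3.98 (SE 0.36, adjusted p = 2.48e-06, edgeR) in knockouts and 3.46 (SE 0.25, adjusted p = 3.24e-06, edgeR) in wildtype.

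Serpinb5 encodes maspin, a clade B serpin made in epithelial cells that does not trap proteases as other serpins do. It stood at 417, 913, 691 and 647 CPM in epidermis KO, against 92.2, 102.0, 78.5 and 94.2 CPM in tongue KO. It stood at 331, 676 and 708 CPM in epidermis WT, against 104, 114, 117 and 106 CPM in tongue WT. The lowest epidermis library, WT 1, was well above the highest tongue library. The log2 fold change was 2.88 (SE 0.23, adjusted p = 7.18e-07, edgeR) in knockouts and 2.39 (SE 0.25, adjusted p = 3.33e-05, edgeR) in wildtype.

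Serpinb12, a clade B serpin that inhibits trypsin-like proteases, was abundant in both tissues. It stood at 265, 682, 522 and 579 CPM in epidermis KO, against 344, 440.4, 221 and 297 CPM in tongue KO. It stood at 204, 516 and 514 CPM in epidermis WT, against 333, 321, 341 and 370 CPM in tongue WT. The tissues overlapped only through the A32x epidermis libraries, KO 1 and WT 1. The log2 fold change was 0.68 (95% interval 0.05 to 1.30, adjusted p = 0.0567, edgeR) in knockouts and 0.29 (-0.37 to 0.94, adjusted p = 0.406, edgeR) in wildtype, so it was not called.

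The call for Serpinb12 turned on single libraries. Without epidermis KO 1 the edgeR log2 fold change in knockouts was 0.90 (adjusted p = 0.00488), without tongue KO 2 it was 0.85 (adjusted p = 0.0341), and in the A38x animals alone it was 1.06 (adjusted p = 0.00283). In wildtype it was 0.61 (adjusted p = 2.58e-04) without epidermis WT 1, 0.52 (adjusted p = 0.00211) in the A38x animals alone and 0.55 (adjusted p = 0.00527) with the animal as a block. With that block only A383 and A384, the wildtype animals with both tissues, inform the tissue difference. The fit with the block is thus not separate from the A38x fit. Set against the median of the basal keratinocyte markers Serpinb12 lay on the tongue side, at -1.39 in knockouts and -1.58 in wildtype.

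Serpinb3a is a mouse counterpart of the human squamous cell carcinoma antigens, serpins that inhibit cysteine and serine proteases. It stood at 83.3, 165, 219 and 269 CPM in epidermis KO, against 801, 844, 603 and 780 CPM in tongue KO. It stood at 84.4, 245 and 244 CPM in epidermis WT, against 821, 753, 832 and 921 CPM in tongue WT. Every tongue library was above every epidermis library. The log2 fold change was -2.01 (SE 0.31, adjusted p = 1.44e-04, edgeR) in knockouts, 4.02-fold higher in tongue, and -2.10 (SE 0.35, adjusted p = 6.32e-04, edgeR) in wildtype, 4.30-fold higher in tongue.

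**Figure D3:**
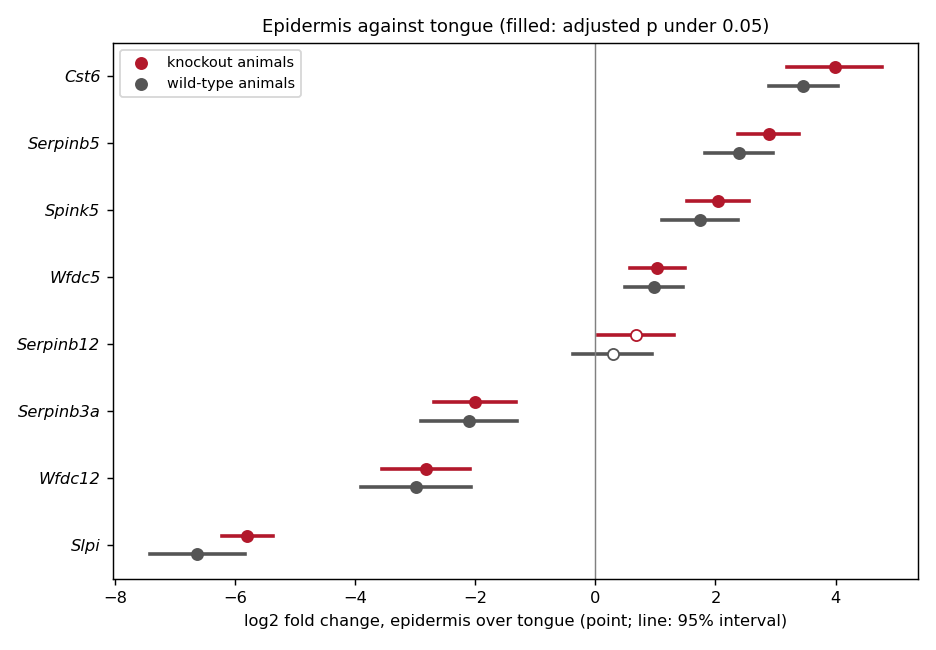
Log2 fold change of epidermis over tongue for the 8 tested inhibitor genes, in knockout animals (upper point of each pair) and wildtype animals (lower point), with 95% intervals; filled points passed an adjusted p of 0.05. Cst6, Serpinb5, Spink5 and Wfdc5 lie to the right of 0 and Serpinb3a, Wfdc12 and Slpi to the left, in both genotypes. Relative to the median of the basal keratinocyte markers Wfdc5 and Serpinb12 would lie left of 0 and Spink5 near 0.

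The serpins are best read along their locus, where 12 clade B genes over 749 kb of chromosome 1 were tested. In both genotypes 8 were higher and 2 lower in epidermis, and Serpinb12 and Serpinb13 were not called, where over all genes 32.7% were higher and 31.1% lower in knockouts and 32% and 31.6% in wildtype. The 2 lower were Serpinb3a and Serpinb11. The genes named here beyond the set were taken for their place in the locus after the values were seen.

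The near copies of Serpinb3a had the reverse of its pattern. Serpinb3b averaged 194 CPM in epidermis KO against 26.6 in tongue KO, and 202 CPM in epidermis WT against 26.8 in tongue WT (log2 fold change 2.88, SE 0.28, in knockouts and 2.93, SE 0.24, in wildtype). Serpinb3c averaged 67.0 CPM in epidermis KO against 0.295 in tongue KO, and 90.5 CPM in epidermis WT against 0.398 in tongue WT (log2 fold change 7.79, SE 0.60, and 7.91, SE 0.47). Serpinb3d averaged 4.27 CPM in epidermis KO against 1.78 in tongue KO, and 6.19 CPM in epidermis WT against 1.84 in tongue WT (log2 fold change 1.30, SE 0.48, and 1.77, SE 0.27). All 3 passed in both genotypes by edgeR, with adjusted p from 9.04e-07 to 0.0310. The promoters printed above for Serpinb3a, Serpinb3b and Serpinb3c thus belong to genes with opposite directions, although their bases around the TATAAA were nearly alike.

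How reads of these copies were shared out limits their values. Of the 37-base windows of the Serpinb3a transcript, 37 bases being the read length, 15.6% also occurred in another Serpinb3 gene, 10.4% in Serpinb3b. The share was 25.4% for Serpinb3b, 18.4% for Serpinb3c and 12.2% for Serpinb3d. An annotated transcript of Serpinb3b also runs over Serpinb3c. How the authors' counting treated such reads is not given in the sources used here.

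**Figure D4:**
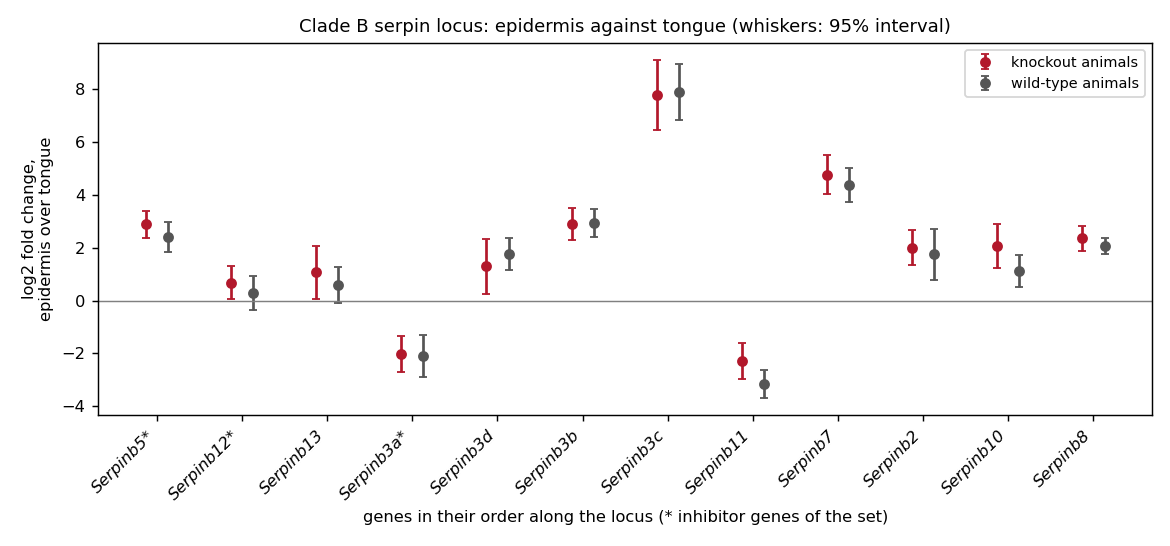
Log2 fold change of epidermis over tongue for the 12 clade B serpin genes in their order along the locus, in knockout animals (left point of each pair) and wildtype animals (right point), with 95% intervals. Serpinb3a and Serpinb11 lie below 0 while Serpinb3d, Serpinb3b and Serpinb3c, which are next to Serpinb3a, lie above it.

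The wider inhibitor families were divided between the tissues too. Of 81 related inhibitor genes listed (other Kazal, WAP, clade B serpin, cystatin and epithelial inhibitor genes) 53 were in the tables. Here too the background is 63.8% of all genes called in knockouts and 63.6% in wildtype, with nearly equal numbers in each direction. In knockouts 19 of 35 tested were higher and 13 lower in epidermis, with a median log2 fold change of 1.61 against 0.07 over all genes. In wildtype 19 of 37 were higher and 14 lower, with a median of 1.17 against 0.03. Of the other cystatins, 5 of 6 tested were higher in epidermis in both genotypes and none lower, whereas 6 of 9 tested in the mixed list of epithelial serpins, Kunitz inhibitors and TIMPs were lower.

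The related inhibitors with the highest CPM in either tissue, which they reached in epidermis, were Stfa3, a stefin that inhibits cysteine proteases, Csta1, also a stefin, Serpina12, whose product vaspin inhibits kallikrein 7, and Serpinb7. Stfa3 averaged 1568 CPM in epidermis KO against 3.82 in tongue KO, and 1429 CPM in epidermis WT against 4.07 in tongue WT. Csta1 averaged 580 CPM in epidermis KO against 67.9 in tongue KO, and 527 CPM in epidermis WT against 74.2 in tongue WT. Serpina12 averaged 464 CPM in epidermis KO against 0.290 in tongue KO, and 427 CPM in epidermis WT against 0.219 in tongue WT. Serpinb7 averaged 331 CPM in epidermis KO against 12.4 in tongue KO, and 239 CPM in epidermis WT against 11.7 in tongue WT. Since the choice by highest CPM took genes abundant in epidermis, their direction is a description only. In tongue the related inhibitors with the highest CPM were Timp3 and Serpinb6a, named here after their values were seen. Timp3, a metalloprotease inhibitor, averaged 67.1 CPM in epidermis KO against 164 in tongue KO, and 68.7 CPM in epidermis WT against 149 in tongue WT. Serpinb6a averaged 48.5 CPM in epidermis KO against 159 in tongue KO, and 43.2 CPM in epidermis WT against 151 in tongue WT.

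Proteases of the families that these inhibitors act on were also measured in both tissues. Their counts stand against the same 63.8% and 63.6% of all genes called. Kallikreins are the family that holds targets of Spink5, and not every member need be one. Of 8 kallikrein genes, 5 were higher in epidermis, 2 lower (Klk10 and Klk14) and 1 not called, in both genotypes. Klk7, a main protease of shedding, averaged 828.99 CPM in epidermis KO against 39.5 in tongue KO, and 690 CPM in epidermis WT against 47.8 in tongue WT. Klk14 averaged 0.906 CPM in epidermis KO against 44.4 in tongue KO, and 0.741 CPM in epidermis WT against 35.0 in tongue WT. The summed CPM of the 8 kallikreins divided by the CPM of Spink5 was 0.788 ± 0.0737 in epidermis KO (SD, n = 4) and 0.775 ± 0.113 in epidermis WT (n = 3), and 0.705 ± 0.0533 in tongue KO and 0.608 ± 0.0620 in tongue WT (n = 4 each). The ranges of this ratio overlapped between the tissues in knockouts (0.707 to 0.854 in epidermis KO, 0.656 to 0.767 in tongue KO) but not in wildtype (0.667 to 0.893 in epidermis WT, 0.518 to 0.654 in tongue WT).

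Cysteine proteases are a class that holds targets of Cst6 and Serpinb3a. Of 5 such genes, 2 were higher and 1 lower in epidermis in knockouts, and 2 higher and 2 lower in wildtype. Legumain (Lgmn), a target of Cst6, averaged 28.3 CPM in epidermis KO against 82.8 in tongue KO, and 22.4 CPM in epidermis WT against 84.2 in tongue WT, the reverse of Cst6. Of 6 epithelial membrane serine protease genes outside the targeted cluster, 4 were higher and 1 lower among 6 tested in knockouts, and 4 were higher and none lower among 5 tested in wildtype. St14, which encodes matriptase, averaged 60.5 CPM in epidermis KO against 13.1 in tongue KO, and 49.0 CPM in epidermis WT against 11.7 in tongue WT.

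Knockout was then compared with wildtype in each tissue. No inhibitor gene passed in epidermis (0 of 9 tested by edgeR, with 0% of 16073 genes called and 187 at an unadjusted p under 0.05). None passed in tongue (0 of 8 tested, with 0.0127% of 15741 genes called and 496 at an unadjusted p under 0.05). None passed by DESeq2 or limma-voom in either tissue. In tongue all 8 intervals lay within a 2-fold change, as for 88.2% of genes, and in epidermis 3 of 9 did, as for 59.6% of genes. For the other 6 genes in epidermis the intervals reached past 2-fold, so a change of that size could not be told from none.

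In epidermis 8 of the 9 log2 fold changes of knockout over wildtype were above 0, with a median of 0.29 against 0.00 over all genes. They were 0.86 for Slpi, 0.53 for Cst6, 0.43 for Spink14, 0.32 for Wfdc5, 0.29 for Serpinb12, 0.21 for Wfdc12, 0.19 for Serpinb5, 0.18 for Spink5 and -0.08 for Serpinb3a. All had an adjusted p of 0.9998 by edgeR. The count rested on epidermis WT 1: without it Serpinb3a (-0.43), Spink5 (-0.11), Wfdc12 (-0.086), Serpinb5 (-0.079) and Serpinb12 (-0.034) lay below 0, and the other 4 above. In the A38x animals alone Cst6 (-0.28), Serpinb5 (-0.054) and Wfdc12 (-0.015) lay below 0, as did Serpinb3a.

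Slpi was the 1 inhibitor gene whose epidermis groups did not overlap, as for 2.21% of all genes. It averaged 4.50 ± 0.717 CPM in epidermis KO (SD, n = 4) and 2.41 ± 1.02 CPM in epidermis WT (n = 3), from 307 and 128 reads in all. Its log2 fold change was 0.86 (SE 0.37, 95% interval 0.03 to 1.69; unadjusted p = 0.0443, adjusted p = 0.9998, edgeR). Without the A32x libraries it was 0.62 (unadjusted p = 0.0577), and in the A38x animals alone 0.74 (unadjusted p = 0.0125, adjusted p = 0.144, edgeR). Blocked by replicate number it was 0.82 (unadjusted p = 0.0749, edgeR).

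Markers listed for other tissues varied among the same epidermis libraries. The 6 summed fibroblast markers stood at 429, 423, 310 and 233 CPM in epidermis KO and at 131, 203 and 385.7 CPM in epidermis WT. The 7 summed skeletal muscle markers stood at 202, 697, 189 and 87.5 CPM in epidermis KO and at 162, 95.6 and 252 CPM in epidermis WT, and the markers of tongue epithelium at 808, 1278, 459 and 312 CPM in epidermis KO and at 614, 673 and 1047 CPM in epidermis WT. The tongue epithelium sum averaged 714 CPM in epidermis KO and 778 CPM in epidermis WT, of which Krt4 held 20.4 and 16.1 CPM. How much of the rest was RNA of the epidermis itself was not tested. The groups overlapped for all 3 lists, and the part of these lists in the Slpi values was not tested.

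In tongue the largest departure from 0 by p was that of Serpinb5. It averaged 91.7 ± 9.79 CPM in tongue KO and 110.7 ± 6.30 CPM in tongue WT (SD, n = 4 each), and every knockout library was below every wildtype library, as for 2.30% of all genes in either direction. The log2 fold change was -0.27 (SE 0.10; unadjusted p = 0.0177, adjusted p = 0.939, edgeR). Wfdc5 had 0.29, Wfdc12 0.04, Cst6 0.04, Slpi 0.01, Serpinb12 -0.07, Spink5 -0.09 and Serpinb3a -0.14, with a median of -0.03 over the 8 genes against 0.01 over all genes. Spink14 was below the filter, with 2 reads in tongue KO and 7 in tongue WT. In the A38x animals alone Slpi (-0.19) and Cst6 (-0.011) turned to below 0. Serpinb12 was at -0.45 there (unadjusted p = 0.0334, adjusted p = 0.359, edgeR).

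**Figure D5:**
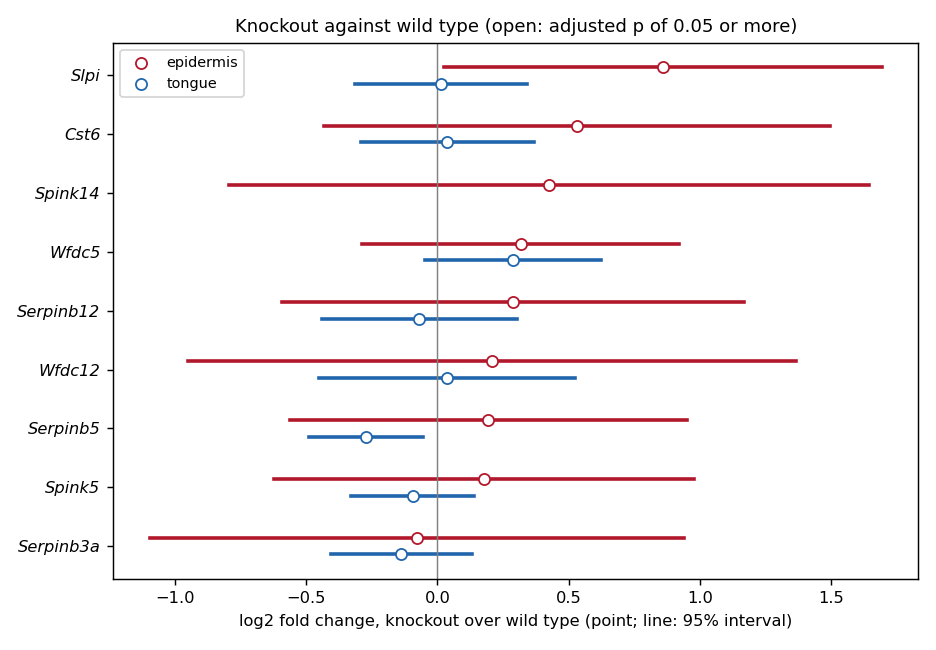
Log2 fold change of knockout over wildtype for the inhibitor genes in epidermis (upper point of each pair) and tongue (lower point), with 95% intervals; open points did not pass an adjusted p of 0.05, and Spink14 was not tested in tongue. No point is filled, and the epidermis intervals are wider than the tongue intervals.

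The difference between the knockout effects of the tissues, which is also the difference between the tissue contrasts of knockouts and wildtype, was tested over all 15 libraries. None of the 9 inhibitor genes passed, nor did any of 17935 genes by edgeR (0% called, 299 at an unadjusted p under 0.05). All 9 estimates were above 0, with a median of 0.38 against 0.01 over all genes. Slpi had 0.82 (SE 0.33, unadjusted p = 0.0240, adjusted p = 0.99996, edgeR), Spink14 2.14 (SE 1.21), Cst6 0.53, Serpinb5 0.49, Serpinb12 0.38, Spink5 0.30, Wfdc12 0.19, Serpinb3a 0.08 and Wfdc5 0.05. The Spink14 value rests on 2 reads in tongue KO and 7 in tongue WT. The signs of Cst6, Wfdc12, Serpinb3a and Wfdc5 turned in other fits. This difference of the effects uses the same libraries as the comparisons above and is not separate evidence.

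The genes nearest to 5 of the inhibitors in profile over the 15 libraries were found by the root mean square (RMS) difference of centred log2(CPM + 1) profiles, among 13422 genes. For Spink5 they were Plbd1 (0.145), Pepd and Macc1, and for Slpi Capn6 (0.297), Grb10 and Bin1. For Cst6 they were Gprin2 (0.269), Ceacam19 and Aox4, for Serpinb5 Mfsd14b (0.184), Them5 and Elovl4, and for Serpinb3a Ifi27 (0.256), Cox7a2 and Uqcrh. Among the inhibitor genes themselves Serpinb5 and Spink5 were the nearest pair (0.392 over all libraries and 0.105 within epidermis). The libraries share tissue, animal and depth, so these are descriptions only.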

How the data were processed

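RNA-seq was done on 15 libraries. Per the labels' protocols, cDNA was made with the SMARTer V4 kit, libraries with TruSeq v2, and 37-base paired reads were taken on a NextSeq500. No strand is stated. The submitters' processing notes name the aligner STAR 2.5.2a and the builds GRCm38.p3 and mm10. Which counter and annotation were used is not stated in them. The authors deposited raw read counts per Ensembl gene, which were tested. They also deposited a signal table of normalized values (counts scaled by library, as in CPM after TMM), used only for gene symbols and checks. Of 23422 entries, 2 transgene entries were left out.

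CPM was computed here from the counts with TMM factors over all 15 libraries. Genes were filtered within each comparison (filterByExpr, minimum count 10) and tested with edgeR 4.0.16 in R 4.3.3 (robust quasi-likelihood F test, two-sided), with Benjamini-Hochberg adjustment over all genes tested. Alternatives were DESeq2 1.42.0, limma-voom (limma 3.58.1), other scaling, no filter, no mitochondrial genes, A38x animals only, blocks, and each library left out. The pipeline was tested on simulated data. Beyond the A-numbers nothing says that samples were separate animals, and p-values then measure sample spread only. Intervals are at 95%. Positions are from GENCODE M21.

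The members and gene lists were chosen with earlier results of these data known. All members are named, with every library value where a group mean reached 1 CPM (Spink14 by range), at most the 4 related inhibitors with the highest CPM, and the 3 nearest profiles of each member at 10 CPM or more. The nearest profiles of Wfdc5 and Serpinb12 are not reported here. From the protease lists, examples were chosen after their values were seen.

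Groups and replicate numbers came from the labels. In the knockout tissues the same number is the same animal, so these samples are paired. The main fits held no term for the animal and treated libraries of the same animal as independent. Blocks were run only as alternatives. In epidermis same-numbered knockout and wildtype libraries deviated together (correlations 0.591, 0.105 and 0.494), although they were different animals. In tongue the correlations were 0.573, 0.118, -0.135 and 0.227, and between the wildtype tissues 0.0931, 0.0990 and 0.121, again in different animals. Each wildtype epidermis library still correlated best with the same-numbered tongue library. Between the knockout tissues, where the animals were the same, the correlations were 0.0665, 0.213, -0.172 and 0.154.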

Additional observations from a re-analysis of the deposited data

Results flagged for a closer look

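Of 27 groups of 4 libraries examined, 1 held a library far from the others, and chance flags about 1 group in 20. Cst6 stood at 198.6 CPM in epidermis KO 2, whereas the other 3 epidermis KO libraries lay between 67.9 and 75.1 CPM. The gap to the nearest library was 0.945 of the group's range, above the critical value of 0.829. The same library had the highest sum of skeletal muscle markers (697 CPM) and of tongue epithelium markers (1278 CPM) of the epidermis libraries, and their part in its Cst6 level was not tested. Epidermis KO 2 was also the only A34x library of epidermis, so the library and that range cannot be told apart there. Cst6 was at 7.16 CPM in the tongue of the same animal.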

How the results depend on the processing

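The 7 calls between tissues kept their direction and call in every other fit run. The exception was that Wfdc5 turned and Spink5 came to about 0 when set against the median of the basal keratinocyte markers, as given below. The count of inhibitor genes called higher in epidermis ran from 4 to 6 in knockouts and from 4 to 5 in wildtype, with Serpinb12 or Spink14 added, and 3 were lower in each fit. The replicate block changed no inhibitor call; it left 0 genes called in epidermis, 2 in tongue, 9037 between the wildtype tissues and 10153 between the knockout tissues. The count over all genes depended more on the setting. In epidermis it was 0, but 1 with DESeq2, with a block for the A-number range or without the A32x libraries, and 604 in the A38x animals alone. In tongue it was 2, but 3 without the filter on low counts, 4 with DESeq2 and 15 in the A38x animals. For the difference of the effects it was 0, but 1 with DESeq2 and 19 in the A38x animals, with 0 to 1 over the fits that left out a library. No inhibitor gene was among them.

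Signs of values that did not pass the test turned. In epidermis, knockout over wildtype was -0.28 for Cst6, -0.054 for Serpinb5 and -0.015 for Wfdc12 in the A38x animals, and -0.060 for Spink14 with the range as a block. Leaving out a library gave -0.11 to 0.41 for Spink5, -0.064 to 0.67 for Spink14, -0.086 to 0.62 for Wfdc12, -0.079 to 0.38 for Serpinb5, -0.034 to 0.49 for Serpinb12 and -0.43 to 0.15 for Serpinb3a. In tongue the A38x values were -0.19 for Slpi and -0.011 for Cst6, and the ranges -0.077 to 0.18 for Slpi, -0.14 to 0.18 for Wfdc12, -0.0097 to 0.088 for Cst6 and -0.25 to 0.080 for Serpinb12. The difference of the effects was -0.013 for Wfdc5 with limma-voom, -0.10 for Wfdc12 and -0.28 for Cst6 in the A38x animals, and -0.30 for Serpinb3a with the animal as a block. Its ranges were -0.13 to 0.22 for Wfdc5, -0.11 to 0.54 for Wfdc12, -0.011 to 0.86 for Cst6 and -0.27 to 0.32 for Serpinb3a.

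Set against the median of the basal keratinocyte markers, epidermis over tongue became -0.023 for Spink5, -1.03 for Wfdc5 and -1.39 for Serpinb12 in knockouts. In wildtype the values were -0.14, -0.90 and -1.58. That setting and the one without the A32x libraries were chosen after seeing the data. The cause of these changes was not tested. Depth limits Spink14, Wfdc12 and Slpi in epidermis, with 30 to 307 reads a group.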
